A study of Mus musculus with 8 samples.

Results

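The genes described are 7 MAP kinase phosphatases (Dusp1, Dusp2, Dusp4, Dusp5, Dusp6, Dusp7 and Dusp10), the Sprouty genes Spry1 and Spry2, and the Sprouty-related gene Spred1. They were chosen by name, and every probe set whose single gene symbol in the platform annotation is one of the 10 was used. This gave 21 probe sets of 45037 in the table, and 10 genes of 18193 named ones. A probe set is a group of short probes read as 1 measurement. Spred1 has 8 probe sets, Dusp7 has 3, Dusp10 and Spry2 have 2 each and the other genes have 1.

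The cells were germinal centre B cells, gated as B220+CD38-CD95+, from lymph nodes of C57BL/6 mice taken 12 days after subcutaneous immunization with NP-KLH (a hapten on a carrier protein) in alum. Each of 4 samples titled light zone and 4 titled dark zone was hybridised to 1 Affymetrix array, and the titles number them as biological replicates without naming the animals or pools behind them. Both zones come from immunized mice, and no unimmunized or resting B cells were among the samples. The labels word the light zone gate as CXCR4hi/CD83lo and the dark zone gate as CXCR4lo/CD83hi, which is opposite to the usual definition. The mRNA followed the titles: Cd83, an activation marker, averaged 7381 ± 195 intensity units in light zone arrays and 1478 ± 111 in dark zone arrays (SD, n = 4 each), and the chemokine receptor gene Cxcr4 averaged 804 ± 39.3 in light zone arrays and 1571 ± 125 in dark zone arrays (SD, n = 4 each). Groups were therefore taken from the titles, and every direction below is between arrays titled light zone and arrays titled dark zone.

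MAP kinases carry signals from the B cell receptor, CD40 and cytokine receptors through 3 main branches, ERK, JNK and p38. The dual specificity phosphatases of the MAP kinase phosphatase group switch these kinases off by removing phosphate from both the threonine and the tyrosine of the activation loop. Several of them are transcribed in response to the kinases they inactivate, so that the pathway feeds back on itself. Sprouty and SPRED proteins act further upstream, on the step from receptor to RAS and RAF. In germinal centres the light zone is the place where B cells receive antigen and T cell signals, and the dark zone is the place of division and mutation.

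The zones differed in part of this feedback set and not in one direction. By the brightest probe set of each gene, Dusp10, Dusp2, Dusp4 and Dusp7 were higher in light zone arrays, Dusp5 was lower, and Dusp1, Dusp6 and Spred1 did not pass. Spry1 and Spry2 were below the filter on dim probe sets (a mean intensity of 27.8 over all 8 arrays, the median of all probe sets) and were not tested. Of the 21 probe sets, 12 were above the filter, 6 of these were higher in light zone arrays and 2 were lower (limma, Benjamini-Hochberg adjusted p under 0.05 over 22519 tested probe sets). Over all tested probe sets 40.8% passed, 21.4% as higher and 19.3% as lower in light zone arrays. Over the 10547 genes represented by their brightest probe set 41.1% passed, 23.6% as higher and 17.5% as lower. Among the members this was 5 of 8 tested genes. The median log2 difference, light zone minus dark zone, was 0.21 over the 8 member genes and 0.01 over all tested genes. The zones did not overlap in 6 of the 12 tested probe sets, 5 of them with the light zone above, against 39.1% and 20.5% of all tested probe sets. By gene this was 4 of 8, 3 with the light zone above, against 41.3% and 23.2% of all tested genes. In sorted bulk samples, fewer cells that express a gene and less of its RNA per cell cannot be told apart.

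The 300-base promoters of 4 members are shown because these genes went in different directions: Dusp2 and Dusp10 were highest in the light zone relative to the dark zone, Dusp5 went the other way and Dusp1 did not pass. RefSeq promoter sequences (GRCm38.p6, from 250 bases before to 50 after the annotated start) were found for 9 of the 10 members. The promoter of Dusp4 was missing and was not searched. They lie at chr2:127335909-127336208 on the + strand for Dusp2, chr1:184034131-184034430 on the + strand for Dusp10, chr19:53528895-53529194 on the + strand for Dusp5 and chr17:26508423-26508722 on the - strand for Dusp1. Each is written 5′ to 3′ on the strand of its gene. Capitals mark matches to the CRE, its core, the E-box, the EGR motif and the CArG box, and in Dusp10 the only match of any kind searched, to the loose NF-kB pattern.
Dusp2: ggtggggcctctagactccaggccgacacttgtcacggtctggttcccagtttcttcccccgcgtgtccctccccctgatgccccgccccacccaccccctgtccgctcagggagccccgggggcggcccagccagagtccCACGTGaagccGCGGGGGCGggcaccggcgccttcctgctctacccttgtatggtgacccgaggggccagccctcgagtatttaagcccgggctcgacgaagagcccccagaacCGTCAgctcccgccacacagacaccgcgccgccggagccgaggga
Dusp10: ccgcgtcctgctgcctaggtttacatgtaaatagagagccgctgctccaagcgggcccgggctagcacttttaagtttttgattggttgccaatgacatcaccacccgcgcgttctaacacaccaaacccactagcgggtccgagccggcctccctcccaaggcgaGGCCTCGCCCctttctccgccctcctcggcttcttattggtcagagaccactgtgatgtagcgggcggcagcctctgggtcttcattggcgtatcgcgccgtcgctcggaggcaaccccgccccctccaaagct
Dusp5: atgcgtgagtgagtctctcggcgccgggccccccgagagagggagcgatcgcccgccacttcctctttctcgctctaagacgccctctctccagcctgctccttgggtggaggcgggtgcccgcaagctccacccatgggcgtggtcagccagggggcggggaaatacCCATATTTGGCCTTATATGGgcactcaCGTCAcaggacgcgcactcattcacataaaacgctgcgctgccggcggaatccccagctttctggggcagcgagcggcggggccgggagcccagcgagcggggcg
Dusp1: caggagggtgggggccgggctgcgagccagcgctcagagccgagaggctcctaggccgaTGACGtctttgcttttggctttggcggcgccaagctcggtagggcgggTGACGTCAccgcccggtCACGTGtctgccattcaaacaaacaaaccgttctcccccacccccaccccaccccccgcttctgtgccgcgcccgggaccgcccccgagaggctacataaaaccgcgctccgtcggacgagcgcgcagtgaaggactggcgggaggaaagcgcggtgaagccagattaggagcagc

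The motifs were searched on both strands as letters, and a match is a description of the sequence, not evidence of a bound factor. Among the 9 members searched, Dusp5 was the only one with a CArG box, the element read by serum response factor. This is CC, 6 bases of A or T, and GG. Dusp5 had 2 of them side by side, CCATATTTGG at -82 to -73 and CCTTATATGG at -72 to -63 from the start. A CArG box was found in 1.63% of 32851 promoters, and at least 2 in 0.0183%, which are 6 promoters of 5 genes. One of these 5 genes is Srf itself, the gene of serum response factor. Dusp1 was the only one of the 9 with a full CRE (TGACGTCA, the cyclic AMP response element, found in 1.79% of promoters), at -143 to -136. It had a further CRE core (TGACG) at -191. The CRE core alone, which the full CRE contains, was in 20.8% of promoters and also in those of Dusp2 and Dusp5. Dusp2 held an E-box (CACGTG, 7.15% of promoters, also in Dusp1) at -109 to -104 and an EGR motif (GCGNGGGCG, 5.55% of promoters) at -98 to -90. The ETS core (CCGGAA, 14.9%) occurred in Spry2 alone, and the AP-1 motif (TGANTCA, 7.81%) in none of the 9. The NF-kB pattern (GGG, any 5 bases, CC) was in all 9 and in 50.8% of all promoters, and in Dusp5 its matches overlap the first CArG box.

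**Figure D1:**
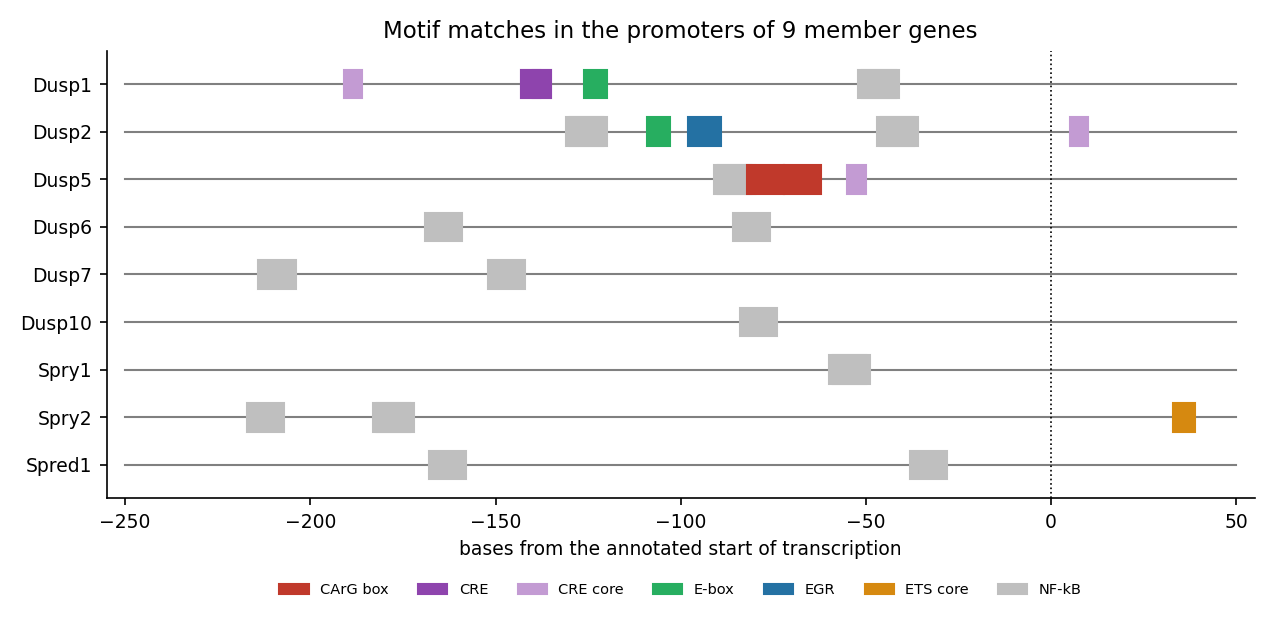
Places of motif matches in the promoters of the 9 member genes with a RefSeq promoter sequence. The horizontal axis is the distance in bases from the annotated start (dotted line) and each coloured block is a match on either strand. The 2 CArG boxes of Dusp5 adjoin each other and appear as 1 red block, and the full CRE of Dusp1 is the only one among the 9.

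Dusp2 (PAC-1) is a nuclear phosphatase that lymphocytes induce within hours of activation and that acts on ERK and p38. Its probe set, 1450698_at, read 2096, 1922, 2180 and 2078 in the light zone arrays of replicates 1 to 4, against 1272, 1177, 1134 and 1127 in the dark zone arrays of replicates 1 to 4. The lowest light zone array was far above the highest dark zone array. The log2 difference was 0.81 (SE 0.07, 95% interval 0.66 to 0.96, limma adjusted p = 3e-06), a 1.76-fold higher level in light zone arrays. A difference this high or higher was seen in 2.72% of tested probe sets.

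Dusp10 (MKP-5) acts mainly on JNK and p38 and spares ERK. Its brighter probe set, 1417164_at, read 396, 402, 434 and 445 in light zone arrays, against 229, 203, 219 and 234 in dark zone arrays. The zones did not overlap, and every light zone array was over 1.5 times every dark zone array. The log2 difference was 0.92 (SE 0.07, limma adjusted p = 1.6e-06), a 1.90-fold higher level, which was the highest among the 21 member probe sets and was reached by 1.95% of tested probe sets. The other Dusp10 probe set, 1417163_at, was below the filter at 22.4 ± 1.49 in light zone arrays and 21.3 ± 1.39 in dark zone arrays (SD, n = 4 each), a log2 difference of 0.08. With both probe sets averaged on the log2 scale, the difference of the gene was 0.50 (limma adjusted p = 1.4e-05). The summed intensity of 10 follicular dendritic cell and stromal markers was also higher in light zone arrays, at 2187 to 2439, against 1161 to 1464 in dark zone arrays. Of these, 6 were below the filter, and Cr2, which B cells also express, made up most of the sum and was the 1 that passed (0.98). The part of such cells in the Dusp2 and Dusp10 differences was not tested.

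Dusp5, a nuclear phosphatase specific for ERK, went against these. Its probe set, 1437199_at, read 195, 219, 179 and 204 in light zone arrays, against 288, 253, 247 and 273 in dark zone arrays. Every light zone array was below every dark zone array. The log2 difference was -0.41 (SE 0.08, 95% interval -0.59 to -0.24, limma adjusted p = 0.0015), so that the dark zone level was 1.33-fold that of the light zone. A difference this low or lower was seen in 8.66% of tested probe sets, and leaving out any 1 array gave values between -0.46 and -0.36, with adjusted p from 0.0012 to 0.0054. The summed intensity of 12 myeloid markers was 297 to 357 in light zone arrays and 393 to 1123 in dark zone arrays. Of the 12, 8 were below the filter, including Itgam, Cd14, S100a8 and Csf3r, Lyz2 (-2.98) and Csf1r (-0.40) were lower in light zone arrays, and Cd68 (0.40) was higher. Lyz2 carried most of that range, at 37.7 to 89.1 in light zone arrays, against 128, 461, 466 and 824 in dark zone replicates 1 to 4. The summed intensity of 10 T cell markers was 645 to 706 in light zone arrays and 803 to 1002 in dark zone arrays. Of these, 6 were below the filter, among them Cd3d, Cd3g and Cd8a, Cd2 (-0.70) was lower in light zone arrays, and Cd3e (0.05), Cd4 (-0.16) and Zap70 (-0.17) did not pass. Cd2 carried most of the difference in this sum, at 356 ± 24.4 in light zone arrays and 584 ± 86.2 in dark zone arrays (SD, n = 4 each). The part of these cells in the Dusp5 difference was not tested.

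Dusp4 (MKP-2) is the nuclear relative of Dusp1 and acts on ERK, JNK and p38. Its probe set, 1428834_at, read 305, 290, 232 and 239 in light zone arrays, against 234, 228, 221 and 174 in dark zone arrays. The zones overlapped, since light zone replicate 3 lay just below dark zone replicate 1. The log2 difference was 0.31 (SE 0.11, limma adjusted p = 0.046). The call was lost when replicate 1 (adjusted p = 0.12) or 2 (0.11) of the light zone was left out, or replicate 2 (0.053), 3 (0.065) or 4 (0.12) of the dark zone, with differences of 0.22 to 0.35.

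Dusp1 (MKP-1) is the classical immediate early phosphatase, with a preference for p38 and JNK. It read 277, 263, 226 and 228 in light zone arrays, against 251, 219, 277 and 231 in dark zone arrays. The values of the zones were interleaved. The log2 difference was 0.02 (SE 0.09, 95% interval -0.18 to 0.23, limma adjusted p = 0.86), and its sign turned when replicate 1 or 2 of the light zone or replicate 2 or 4 of the dark zone was left out, or arrays were weighted. The 4 nuclear inducible phosphatases thus gave log2 differences of 0.81 for Dusp2, 0.31 for Dusp4, 0.02 for Dusp1 and -0.41 for Dusp5, on probe sets at least as bright as 92.4%, 64.2%, 65.0% and 63.4% of those tested.

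**Figure D2:**
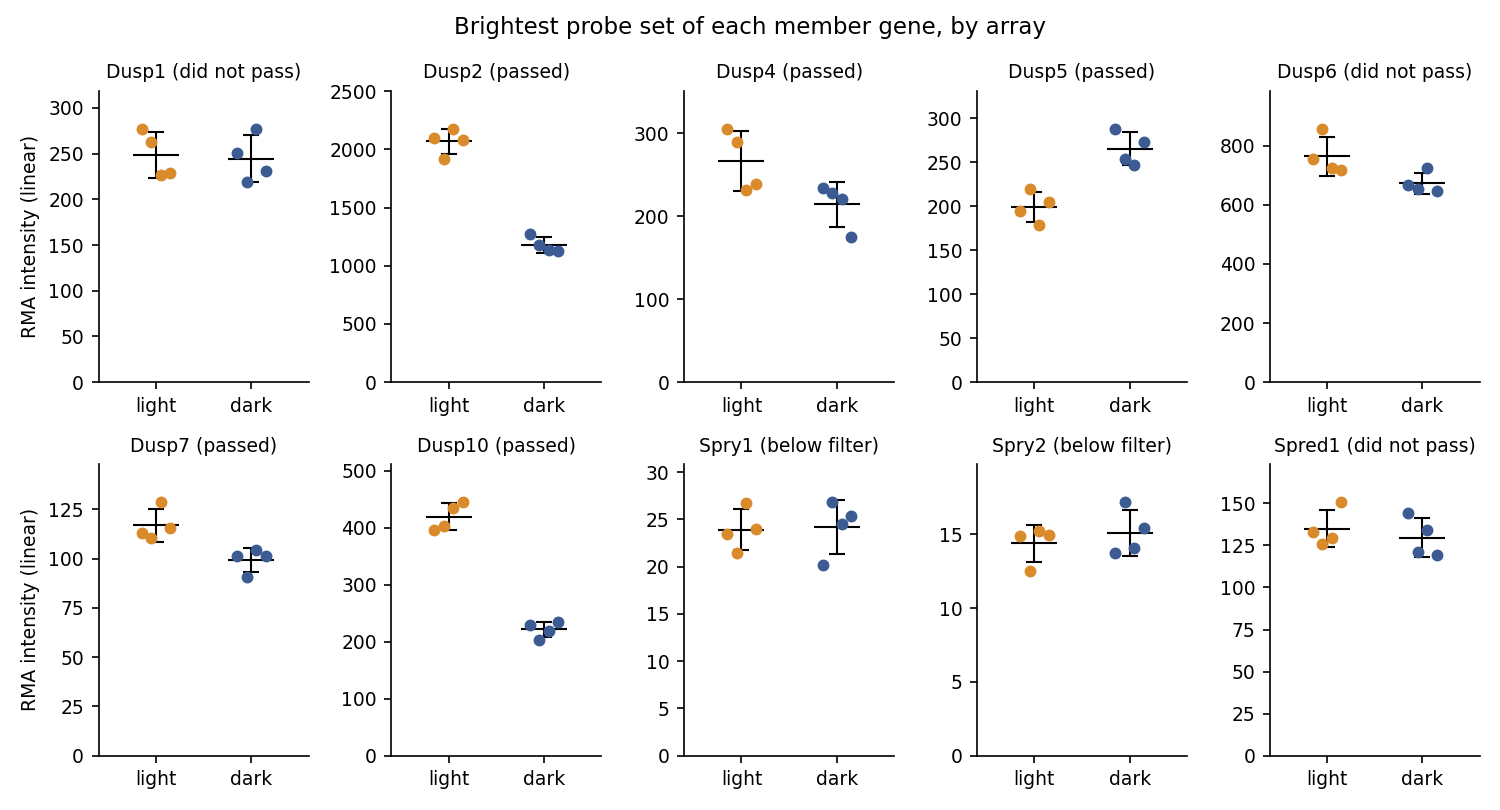
RMA intensity on a linear scale (vertical axis, from 0) of the brightest probe set of each member gene in the 4 light zone arrays (orange, left) and the 4 dark zone arrays (blue, right). Points are arrays, and bars are the mean and SD. Dusp2 and Dusp10 separate with the light zone higher, Dusp5 separates with the light zone lower, and Spry1 and Spry2 stay under 27.8 in every array.

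Dusp6 (MKP-3) and Dusp7 (MKP-X) are cytoplasmic phosphatases for ERK, and Dusp6 is a standard readout of ERK activity. Dusp6 read 754, 858, 724 and 719 in light zone arrays, against 666, 653, 724 and 646 in dark zone arrays. Dark zone replicate 3 lay within the light zone range and the other dark zone arrays were lower. The log2 difference was 0.18 (SE 0.07, 95% interval 0.02 to 0.34) and did not pass (limma adjusted p = 0.071). It passed with a variance model that follows the intensity (adjusted p = 0.045) and in a fit of genes with averaged probe sets (0.041).

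Dusp7 was higher in light zone arrays by both of its tested probe sets, by unequal amounts. Probe set 1452097_a_at, slightly the brighter, read 113, 110, 129 and 115 in light zone arrays, against 102, 90.5, 104 and 101 in dark zone arrays. Its log2 difference was 0.23 (SE 0.07, limma adjusted p = 0.024). Its call was lost when replicate 3 of the light zone (adjusted p = 0.077) or replicate 2 of the dark zone (0.072) was left out. Probe set 1427416_x_at read 112, 131, 137 and 137 in light zone arrays, against 80.1, 81.2, 77.7 and 94.6 in dark zone arrays. Here the difference was 0.63 (SE 0.09, limma adjusted p = 0.00015). The zones did not overlap in either. The suffix x marks probe sets whose probes can also bind other transcripts. The remaining one, 1460393_a_at, stood below the filter at 16.3 ± 1.62 in light zone arrays and 14.95 ± 0.511 in dark zone arrays (SD, n = 4 each).

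The Sprouty genes gave little signal on these arrays. Spry1, an inhibitor of signalling from receptor tyrosine kinases to RAS, ranged from 21.4 to 26.7 in light zone arrays and from 20.1 to 26.8 in dark zone arrays. The probe sets of Spry2, a close relative, ranged from 11.7 to 15.2 in light zone arrays and from 11.01 to 17.2 in dark zone arrays. These levels lie below the median probe set, and no detection call was used here. In a fit with no filter none of the 9 dim member probe sets passed (limma), the smallest adjusted p among them being 0.27, with 21.8% of all 45037 probe sets passing.

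Spred1, which restrains RAS by bringing neurofibromin to the membrane, has probe sets that disagree. The brightest, 1423160_at, read 133, 126, 130 and 151 in light zone arrays, against 144, 121, 134 and 119 in dark zone arrays, for a log2 difference of 0.06 (SE 0.08, 95% interval -0.12 to 0.24, limma adjusted p = 0.62). Its zones were interleaved. Probe set 1423161_s_at read 56.6, 42.5, 49.7 and 42.7 in light zone arrays, against 78.3, 60.3, 77.5 and 54.7 in dark zone arrays. The highest light zone array reached into the dark zone range, and the log2 difference was -0.49 (SE 0.13, limma adjusted p = 0.010). Probe set 1423162_s_at went the same way without passing, at -0.20 (SE 0.10, limma adjusted p = 0.14), and passed only when dark zone replicate 4 was left out (-0.28, adjusted p = 0.043). Probe set 1460116_s_at went the opposite way and without overlap, at 42.2, 40.6, 45.7 and 41.0 in light zone arrays, against 22.6, 28.1, 35.8 and 32.8 in dark zone arrays. Its log2 difference was 0.53 (SE 0.12, limma adjusted p = 0.0047). The suffix s marks probe sets shared by several transcripts, and the 3 such probe sets were dim, with 11.2% to 27.6% of tested probe sets as dim or dimmer. The remaining 4 were below the filter, with differences of -0.03 to 0.13. With the probe sets averaged on the log2 scale the difference was 0.0043 (limma adjusted p = 0.96). No single direction can be given for Spred1.

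**Figure D3:**
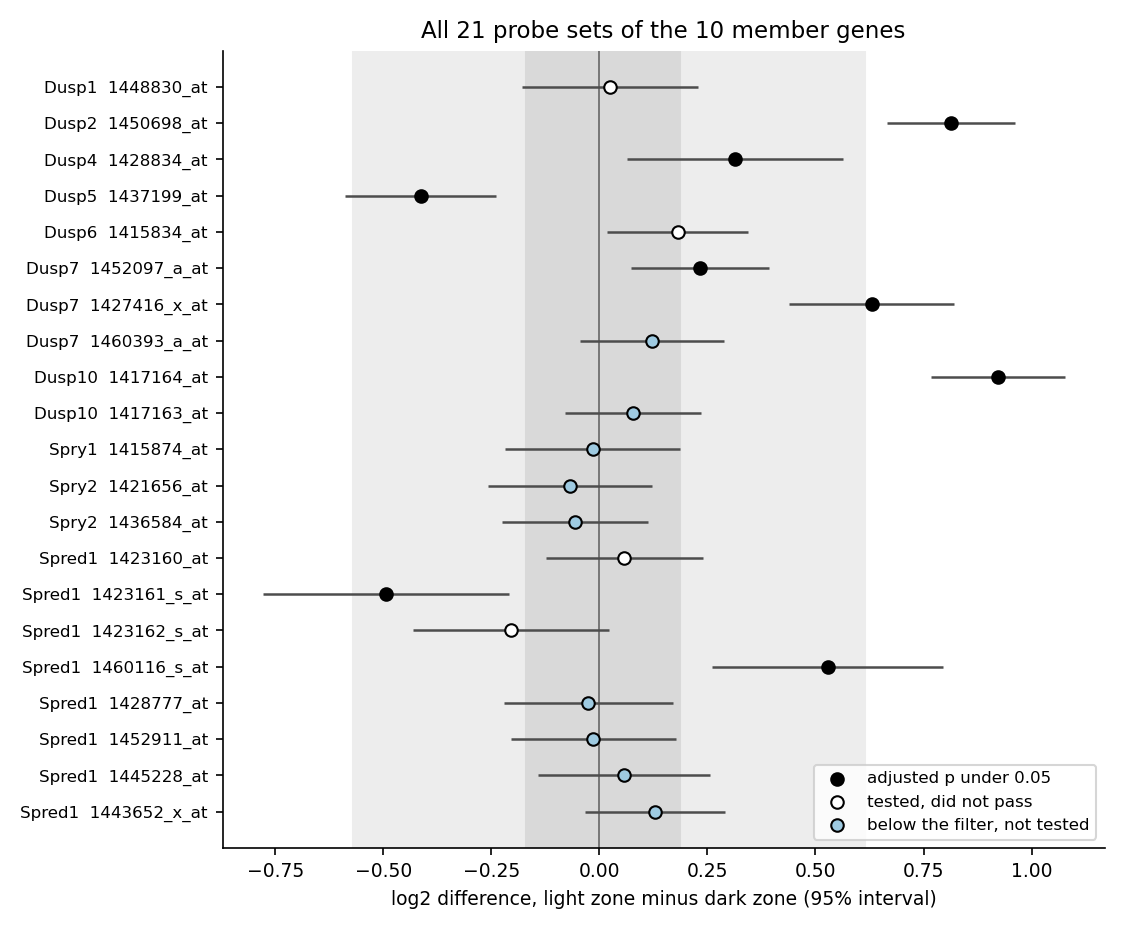
Log2 difference, light zone minus dark zone, of all 21 member probe sets with 95% intervals (black: adjusted p under 0.05, white: tested and not passed, blue: below the filter, from the fit with no filter). Grey bands are the middle 50% and 90% of all tested probe sets. Dusp10 at 0.92, Dusp2 at 0.81 and a probe set of Dusp7 at 0.63 lie right of both bands, while probe sets of Spred1 lie on both sides of 0.

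The relatives outside the member list also split. Of 7 other phosphatases of this class, Sprouty and Spred genes, 3 were above the filter, 1 rose, 1 fell and Dusp8 did not pass (-0.17). Over all tested genes 41.1% passed. Dusp16 (MKP-7), which like Dusp10 acts on JNK and p38, averaged 359 ± 35.6 in light zone arrays and 559 ± 44.5 in dark zone arrays (SD, n = 4 each), a log2 difference of -0.64 (SE 0.09, limma adjusted p = 0.00012). Dusp10 and Dusp16 thus differed between the zones in opposite directions, without overlap of arrays in either gene. A dimmer probe set of Dusp16 gave -0.12 (limma adjusted p = 0.45). Spred2, a relative of Spred1, was higher in light zone arrays by its brightest probe set (0.45, SE 0.10, limma adjusted p = 0.0029), but not by its dimmer ones (-0.15 and -0.01), nor with its probe sets averaged (0.07, adjusted p = 0.32).

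The kinases that these phosphatases and inhibitors act on moved little as lists. Of 17 tested genes of the RAS and ERK cascade, 5 rose and 2 fell, with a median of 0.02. The share that passed, 41.2%, was close to the 41.1% of all tested genes. The kinase gene Map3k8 (TPL2), which activates ERK downstream of CD40 and Toll-like receptors, rose by 1.43 (SE 0.08, limma adjusted p = 2.2e-07). Map2k1 (MEK1) rose by 0.38, while Map2k2 (0.10), Braf (0.02) and the RAS activator gene Rasgrp3 (0.06) did not pass. For Braf, 2 of 5 dimmer tested probe sets did (0.36 and 0.20). Rasgrp1, another RAS activator, fell by 0.36 by its brightest probe set, while a dimmer one gave -0.22 and did not pass (limma adjusted p = 0.13). Rras2 fell by 0.43. Araf and Ksr1, at 0.52 and 0.51, passed by their brightest probe sets, but each had dimmer ones that did not, and Araf was at 0.17 with its probe sets averaged. In the JNK and p38 cascades, 4 of 17 tested genes rose and 3 fell, with a median of 0.05. Here too 41.2% passed, against 41.1% of all tested genes. Map3k1 rose by 1.29 (SE 0.11) and the p38 beta gene Mapk11 by 0.85 (SE 0.06). Map3k5 (ASK1) fell by 0.37, while the main p38 gene Mapk14 was at 0.07 (limma adjusted p = 0.55). Mapk12 (p38 gamma) rose by 0.37 but was dim, at 33.5 ± 3.42 in light zone arrays and 25.9 ± 2.47 in dark zone arrays (SD, n = 4 each). Its dark zone mean lay below the filter level of 27.8, so it was tested through its light zone arrays. Of this list, 1 gene was called lower when replicate 2 of the light zone or replicate 3 or 4 of the dark zone was left out.

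Other brakes on RAS gave as many rises as falls. Of 16 tested genes, 4 rose, 4 fell and 8 did not pass, with a median of 0.03. Among all tested genes 41.1% passed, 23.6% as higher and 17.5% as lower in light zone arrays. The RAS GTPase activating protein genes Rasal3 (0.68) and Rasa2 (0.47) rose, while Rasa3 fell by 0.68 and the ubiquitin ligase gene Cbl by 0.46. A dimmer probe set of Rasal3 gave -0.02 and did not pass. Nf1, the gene of neurofibromin, was at 0.02 (95% interval from the same fit -0.16 to 0.20) and its sign turned without some arrays.

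Genes that ERK signalling is known to induce had a higher median than the feedback genes. Of 17 tested genes, 11 rose in light zone arrays and none fell, with a median of 0.73, against 4 and 1 of 8 member genes with a median of 0.21. Over all tested genes, 23.6% were higher and 17.5% lower in light zone arrays. Of the 26 genes of the list with a probe set, 9 were below the filter and do not enter the count or the median. With replicate 1 of the light zone or replicate 2 of the dark zone left out, 1 gene was called lower. Part of the list was known from earlier results of these data to be higher in the light zone. Its count and its median are therefore not independent evidence. Egr3, at 1136 ± 121 in light zone arrays and 44.6 ± 4.97 in dark zone arrays (SD, n = 4 each), Egr2 (2.67), Myc (2.10) and Egr1 (1.96) rose most, although a dimmer probe set of Egr3 gave -0.01. Etv5, an ETS factor gene that follows ERK activity closely, rose by 0.74 (SE 0.14, limma adjusted p = 0.0011), and Srf by 0.38 (SE 0.08, limma adjusted p = 0.0027). Dusp5, which like Srf has at least 2 CArG boxes in its promoter, was at -0.41. Fos varied widely, at 227, 110, 51.4 and 132 in light zone arrays, against 81.0, 74.1, 36.1 and 113 in dark zone arrays, and its difference of 0.70 (SE 0.41) did not pass (limma adjusted p = 0.20). It passed without light zone replicate 3 (1.08, adjusted p = 0.028) and was at 0.37 without light zone replicate 1. Fos also passed with the replicate number as a block (limma adjusted p = 0.014). The numbers were not taken to pair the samples.

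**Figure D4:**
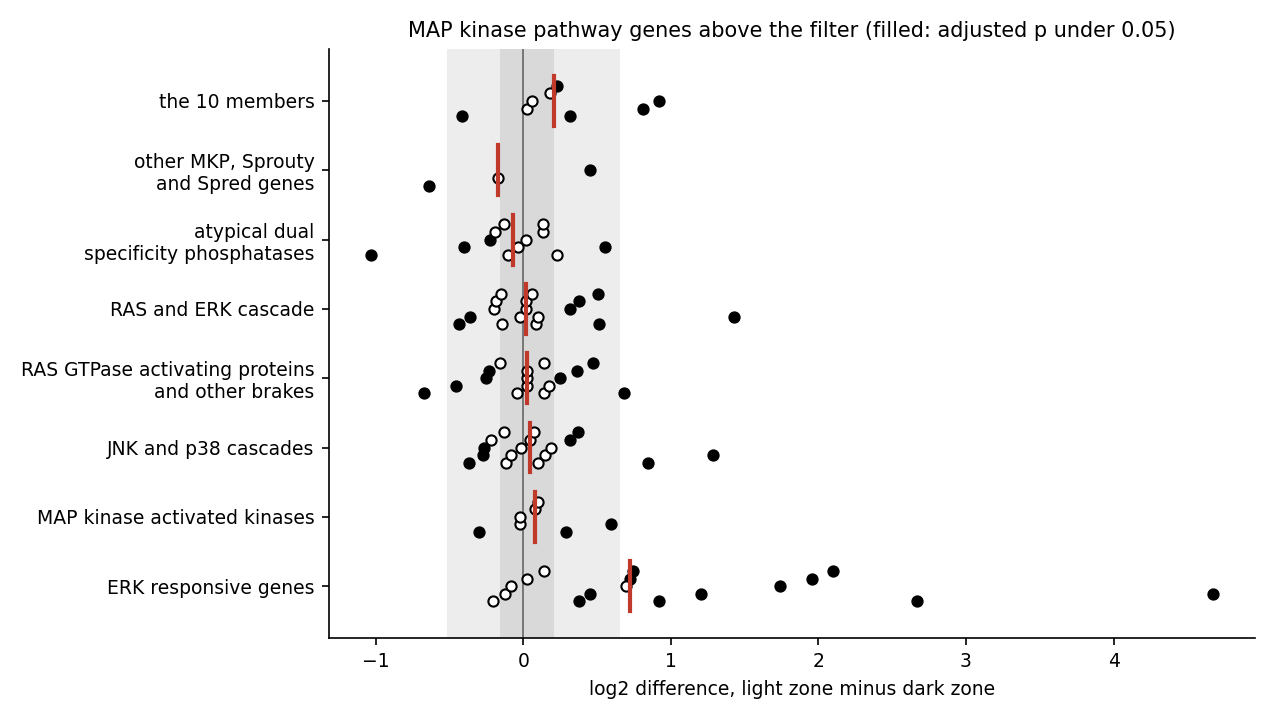
Log2 difference, light zone minus dark zone (horizontal axis), of genes above the filter in the member list and 7 related lists, each gene by its brightest probe set. Filled points passed an adjusted p of 0.05, red bars are list medians, and grey bands are the middle 50% and 90% of all tested genes. The member median is 0.21, that of the ERK responsive genes is 0.73, and the other medians lie between -0.17 and 0.08.

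Genes with the most similar pattern over the 8 arrays were found by Pearson correlation of log2 values, which with 8 arrays mainly reflects the zone difference. For Dusp10 they were Abhd17a (r = 0.998), Piezo1 (0.998) and Calr (0.997), and 609 of 10539 compared genes reached 0.95. For the Spred1 probe set 1423161_s_at, the lowest member difference, they were Mad2l1bp (0.978), Xxylt1 (0.976) and Scp2 (0.976), with 25 genes at 0.95. For Dusp5, added after its values were seen, they were Phka1 (0.985), Bloc1s2 (0.979) and Peli1 (0.973), with 14 genes at 0.95. These are descriptions, without a test.

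The arrays themselves were alike. Median intensities were 27.3 to 28.1, no pair of arrays was identical, and correlations over tested probe sets were 0.994 to 0.997 within a zone and 0.972 to 0.980 between zones. Of 10 germinal centre B cell markers with a probe set, all were above the filter, with Ms4a1, Cd79b and Bcl6 among the bright ones. Of the 10, Gcsam (-1.48), Mybl1 (-0.76) and S1pr2 (-0.26) were lower in light zone arrays. Cd22 (0.66) and Fas (0.23) were higher, and 5 did not pass. The gate genes Fas (0.23) and Ptprc (0.21) rose slightly in light zone arrays by their brightest probe sets. A dimmer probe set of Ptprc gave 0.73 (limma adjusted p = 7.2e-06). The call of the brightest Ptprc probe set was lost with repeated quantile normalization (limma adjusted p = 0.055). Plasma cell markers went both ways, 2 higher and 2 lower of 7 tested. Thus 57.1% passed, against 41.1% of all tested genes. Of the higher ones, Prdm1 averaged 45.4 ± 6.75 in light zone arrays and 17.6 ± 2.48 in dark zone arrays (SD, n = 4 each). Its dark zone mean lay below the filter level of 27.8, so it was tested through its light zone arrays.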

How the data were processed

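Total RNA of 8 sorted samples was labelled with a 3' IVT kit, per the labels' protocols, and read on Affymetrix arrays. The deposited values are intensity values on a linear scale made by the authors with RMA, per the submitters' processing notes; the linear scale was read from the values. RMA as usually run corrects background, quantile normalizes and summarises probes. Its version and any detection calls are not given in the sources used here. Such normalization hides a change in total RNA per cell and compresses folds of dim probe sets.

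The log2 of each value was taken with no pseudocount, as none of the values was missing or at or below 0. Of 45037 probe sets, 34945 carry 1 gene symbol. The probe sets, named or not, with a mean log2 at or above the 50th percentile, 22519, were fitted with limma 3.58.1 in R 4.3.3 (lmFit, eBayes, no covariate, two-sided, Benjamini-Hochberg adjusted p under 0.05). Differences are light zone minus dark zone. Where lists are counted, a gene is its probe set with the highest mean. The number of arrays limits the precision, and the p-values set each zone difference against the spread between these samples. Whether that spread is between animals or between pools is not given by the titles.

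The members and lists were chosen with earlier results of these data known. Named genes are all members, up to 4 called genes with the largest differences per pathway list, a few cascade genes fixed by name, gate genes, and the 3 genes most like the called member probe sets with the largest rise and fall. Mapk14, Dusp8, Srf, Dusp5's neighbours in pattern, Rps6ka3, Mknk1, Mknk2 and markers were named besides, after their values were seen. Alternatives changed the filter, probe set choice, pseudocount, normalization, variance model, array weights, replicate block, threshold and arrays included. Plots were made in Python 3.11.15 (matplotlib 3.10.9).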

Additional observations from a re-analysis of the deposited data

Results flagged for a closer look

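In 116 groups of 4 arrays (the member and other named probe sets in each zone), 5 held an array that stood far from the other 3, by Dixon's criterion at 95%, which chance meets in about 1 of 20 groups. Light zone replicate 2 read 12.5 for the Spry2 probe set 1421656_at, against 14.9 to 15.2 in the other light zone arrays, and 13.3 for the other Spry2 probe set, 1436584_at, against 11.7 to 11.9. The shifts have opposite signs and both probe sets are below the filter. Dark zone replicate 4 read 210 for Braf (210.5), against 249 to 256 in the other dark zone arrays. Dark zone replicate 1 read 594 for Dusp11, against 692 to 705, and 534 for Map2k2, against 422 to 434. No member probe set above the filter was among them.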

How the results depend on the processing

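The results were recomputed under 19 alternatives, 1 of them (probe sets averaged per gene) chosen after the data were seen. The 4 tested member probe sets that are not the brightest of their gene have no value with 1 probe set per gene or with averaged probe sets. The member probe sets called lower in light zone arrays numbered 2, and 1 with 1 probe set per gene, with averaged probe sets or at an adjusted p of 0.01; leaving out 1 array gave 2 to 3 lower and 4 to 6 higher. Over the whole table, 4830 were higher and 4352 lower in light zone arrays. With 1 probe set per gene these were 2614 and 2015, where fewer features are tested, with averaged probe sets 2360 and 2149, and at 0.01 the lower ones numbered 2841. Leaving out 1 array gave 4292 to 4589 higher and 3801 to 4151 lower. Dusp10, Dusp2, Dusp5, Spred1 1460116_s_at and Dusp7 1427416_x_at kept direction and call in every alternative that tested them. Sign turned for Dusp1 with array weights (-0.0035) and over arrays left out (-0.0298 to 0.0869), for Nf1 with repeated quantile normalization (-0.0050) and over arrays left out (-0.0103 to 0.0967), and for Braf over arrays left out (-0.0471 to 0.0582); none of these passed. Dusp4 also lost its call with no filter (adjusted p = 0.060), the 25th percentile (0.052) or array weights (0.075), and Dusp7 1452097_a_at with repeated quantile normalization (0.056). Same-numbered arrays of the zones correlated at 0.0805 to 0.177 in their deviations, not all above 0.1, so the numbers were not taken to pair the samples. Of the 8 arrays, 7 correlated best with the same number in the other zone, a hint from the data and not from the design. With the replicate block 4981 probe sets were higher and 4527 lower, members called stayed at 6 and 2, and Dusp11 lost (0.075) and Fos gained (0.014) a call. The Dusp11 call was also lost in 6 of 8 fits with an array left out, though a dimmer Dusp11 probe set passed (-0.44). Low intensity limits what can be said of Spry1, Spry2 and the dim Spred1 probe sets.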

Other observations

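Genes of atypical dual specificity phosphatases and slingshot phosphatases, relatives that lack the kinase-docking domain of the members, went both ways. Of 12 tested, 1 rose in light zone arrays, 3 fell and 8 did not pass, so that 33.3% passed against 41.1% of all tested genes, with a median of -0.07 against 0.01 over all tested genes. The slingshot genes, whose products activate the actin-severing protein cofilin, went in opposite directions. Ssh2 averaged 630 ± 74.4 in light zone arrays and 1283 ± 105 in dark zone arrays (SD, n = 4 each), a log2 difference of -1.03 (SE 0.09, limma adjusted p = 4.7e-06), and a dimmer probe set gave -0.77. Ssh1 averaged 462 ± 26.7 in light zone arrays and 315 ± 15.6 in dark zone arrays (SD, n = 4 each), a difference of 0.55 (SE 0.07, limma adjusted p = 6.2e-05), while its dimmer probe sets gave -0.04 to 0.54 and 1 of the 3 passed. Dusp14, a negative regulator of T cell receptor signalling, fell by 0.40 (SE 0.09, limma adjusted p = 0.0034). Leaving out replicate 4 of the light zone or replicate 1 of the dark zone gave 2 genes called higher.

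Of 7 tested kinases that MAP kinases activate, 2 rose and 1 fell in light zone arrays, with a median of 0.08. Thus 42.9% passed, close to the 41.1% of all tested genes. Mapkapk3, a p38 target kinase, averaged 193 ± 7.96 in light zone arrays and 128 ± 12.6 in dark zone arrays (SD, n = 4 each), a log2 difference of 0.59 (SE 0.08, limma adjusted p = 0.00011), and its dimmer probe set gave 0.51. Mapkapk2, the main p38 target kinase, was at 0.29 (SE 0.08, limma adjusted p = 0.010). Rps6ka5 (MSK1) fell by 0.30 (limma adjusted p = 0.022), a call lost when replicate 3 or 4 of the light zone, or 2 or 3 of the dark zone, was left out. The ERK target kinase genes Rps6ka3 (-0.02), Mknk1 (-0.02) and Mknk2 (0.08) did not pass.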
